A study of Mus musculus with 33 samples.

Results

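The drug-metabolising cytochrome P450 genes of families 1, 2 and 3 were followed in mouse liver after activation of MYC, of β-catenin or of both, and in the liver tumours that arise with these alleles. The members were chosen by symbol alone, as every gene whose name reads Cyp, a family number from 1 to 3, a subfamily letter and a gene number. They were 59 of the 21671 genes measured. Levels are given as RPKM, that is, reads scaled to gene length and library size, so that levels of different genes are on 1 scale within a library. That scale was compressed for abundant genes, as described with the depth of the libraries.

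All animals were C57BL/6, and total RNA of whole liver or of whole nodules was sequenced in 33 libraries. In the short-term arm, mice 6 to 8 weeks old received AAV8-TBG-CRE, a virus whose hepatocyte promoter drives Cre recombinase, and livers were taken after 4 days. These AAV livers came from 5 wild-type mice, 5 mice with beta-cat Ex3, a β-catenin allele that Cre turns into a stabilised form by removing exon 3 (Ex3 livers), 5 mice with R26-lslMYC, a Rosa26 allele from which Cre releases MYC expression (MYC livers), and 5 mice with both alleles (MYC+Ex3 livers). Wild-type AAV livers received the virus too. In the tumour arm, 3 nodules came from Alb-CreERT2/R26-lslMYC mice (MYC tumours) and 3 from Alb-CreERT2/R26-lslMYC/beta-catEx3 mice (MYC+Ex3 tumours), where albumin promoter sequence drives a Cre that 4-hydroxytamoxifen (4-OHT) activates. Their controls were 7 wild-type livers taken 4 days after 4-OHT (4-OHT livers). The labels gave neither the age nor the treatment of tumour-bearing mice, nor the age of the mice given 4-OHT, so tumours and controls may differ in age as well as in tissue. Nodules were set against livers of other animals, not against tissue beside them. In such bulk tissue, fewer hepatocytes and less RNA per hepatocyte cannot be told apart.

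Cytochromes P450 of these families are haem enzymes of the endoplasmic reticulum that insert oxygen into drugs, steroids, fatty acids and toxins, with electrons from the reductase Por. Most are made by hepatocytes, and many are zoned along the liver lobule. Wnt/β-catenin signalling near the central vein favours pericentral forms such as Cyp2e1 and Cyp1a2, whereas Cyp2f2 is periportal. Xenobiotic receptors induce others (AhR for family 1, CAR and PXR for Cyp2b, Cyp2c and Cyp3a genes), and the sex-specific rhythm of growth hormone sets a large group of male- and female-biased forms.

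The RefSeq annotation (GRCm38.p6, not the mm9 build of the deposited values) places nearly all members in tandem clusters. There are 14 Cyp2c genes in one run on chromosome 19, 13 genes of the Cyp2a, Cyp2b, Cyp2f, Cyp2g, Cyp2s and Cyp2t subfamilies on chromosome 7, 9 Cyp2d genes on chromosome 15, 8 Cyp2j genes on chromosome 4, 6 Cyp3a genes on chromosome 5 and the 2 Cyp1a genes on chromosome 9. Neighbours in a cluster can be near copies. Of the 57 members with a protein-coding transcript in GENCODE, 14 had another member at least 95% identical over the aligned transcript, among them Cyp2a4 and Cyp2a5 (98.2%), Cyp2a12 and Cyp2a22 (96.2%), and Cyp2c67, Cyp2c68 and Cyp2c69, each 97.6% to 98.0% identical to Cyp2c40. How reads that fit several copies were counted is not given in the sources used here, so levels within such pairs are uncertain.

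The promoters of 8 members on which results turned are shown as the 150 bases before the RefSeq start, 5′ to 3′ on the gene's own strand (GRCm38.p6). Capitals mark TATAAA, CAAAGTCCA or CACGTG on either strand, which are the TATA box, a sequence bound by HNF4 receptors and the E-box that MYC binds. Cyp2e1 was the most abundant member, and Cyp2c40 and Cyp2c69 are near copies with female bias. Cyp3a11 and Cyp3a16 are the adult and the fetal and neonatal Cyp3a forms. Cyp2c55 was higher in MYC+Ex3 livers and tumours, and Cyp2j5 and Cyp2j6 were the members that passed the test between tumour genotypes.
Cyp2e1 (chr7:140763669-140763818, plus strand): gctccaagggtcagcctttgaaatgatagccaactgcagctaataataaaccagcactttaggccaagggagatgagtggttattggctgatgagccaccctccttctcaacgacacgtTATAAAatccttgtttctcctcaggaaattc
Cyp2c40 (chr19:39812815-39812964, minus strand): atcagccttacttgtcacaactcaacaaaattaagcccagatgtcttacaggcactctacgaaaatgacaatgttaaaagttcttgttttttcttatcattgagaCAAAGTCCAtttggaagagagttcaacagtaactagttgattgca
Cyp2c69 (chr19:39886770-39886919, minus strand): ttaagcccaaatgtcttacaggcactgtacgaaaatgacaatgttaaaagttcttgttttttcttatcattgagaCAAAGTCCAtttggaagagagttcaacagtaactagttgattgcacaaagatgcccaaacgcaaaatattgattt
Cyp3a11 (chr5:145879855-145880004, minus strand): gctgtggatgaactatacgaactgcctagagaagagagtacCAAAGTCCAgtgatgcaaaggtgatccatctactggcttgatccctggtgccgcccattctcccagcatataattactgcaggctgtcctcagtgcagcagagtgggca
Cyp3a16 (chr5:145469724-145469873, minus strand): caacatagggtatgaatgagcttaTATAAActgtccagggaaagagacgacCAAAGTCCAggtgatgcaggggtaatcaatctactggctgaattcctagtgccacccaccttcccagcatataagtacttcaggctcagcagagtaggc
Cyp2c55 (chr19:39006869-39007018, plus strand): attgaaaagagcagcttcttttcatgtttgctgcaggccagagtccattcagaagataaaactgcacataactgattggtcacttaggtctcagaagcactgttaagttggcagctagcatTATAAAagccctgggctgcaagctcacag
Cyp2j5 (chr4:96664120-96664269, minus strand): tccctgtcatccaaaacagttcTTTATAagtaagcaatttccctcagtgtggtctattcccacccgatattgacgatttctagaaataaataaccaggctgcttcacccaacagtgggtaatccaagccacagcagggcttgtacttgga
Cyp2j6 (chr4:96553652-96553801, minus strand): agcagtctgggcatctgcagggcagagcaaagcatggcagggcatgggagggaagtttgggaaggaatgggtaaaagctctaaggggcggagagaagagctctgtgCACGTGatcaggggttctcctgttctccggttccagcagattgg
Cyp2c40 and Cyp2c69 carried CAAAGTCCA within the same surrounding letters, 45 and 75 bases before their annotated starts. In the Cyp3a pair it lay 109 bases (Cyp3a11) and 99 bases (Cyp3a16) before the start. Over windows of 250 bases before the start, searched on both strands, CAAAGTCCA occurred in 8 of 53 windows of 50 members (15.1%) and in 0.384% of all 32851 windows. TATAAA occurred in 43.4% of member windows and 12.4% of all windows. CACGTG was found in 1 member window, that of Cyp2j6 (1.89%, against 6.02% of all windows), and CTTTGAT, the TCF/LEF sequence of β-catenin targets, in 5.66% against 3.21%. The remaining sequences searched were GCGTG (AhR; 17% of member windows, 28.2% of all), TTGCNNCAA (C/EBP; 3.77%, 1.74%), GTTAAT (HNF1; 11.3%, 6.43%), the full palindromic HNF1 sequence, which contains it (0%, 0.00913%), AGTTCA and GGGTCA (single repeats of nuclear receptor elements; 11.3%, 11.8% and 7.55%, 11.6%), TTCNNNGAA (STAT; 3.77%, 7.02%), ATTGAT (Onecut and CUX; 17%, 6.72%) and ATCGAT (CUX2; 0%, 0.728%). A match describes the letters of these windows and shows no binding, and members of 1 cluster share sequence by descent.

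The AAV libraries held 3.75 to 7.31 M reads in genes and those of the tumour arm 6.65 to 9.82 M. The highest RPKM of any gene lay between 220 and 396 in AAV libraries and between 42.9 and 67.5 in the tumour arm, so the arms are on different scales, and levels and genotypes were compared only within an arm. Reads of Cyp2e1, the most abundant member, changed by 0.29 on the log2 scale per log2 unit of depth within AAV groups. The median was 0.76 for the other members tested. The matching values of the tumour arm were -1.15 and 0.45, which mix depth with differences between nodules. MYC tumour 3 had only 516 Cyp2e1 reads at 9.82 M, the highest depth of this arm. Among the 7 4-OHT livers Cyp2e1 stayed at 2282 to 2535 reads over 6.65 to 8.59 M. Levels near the highest RPKM of a library may therefore understate differences between abundant genes and between groups. Hepatocyte markers (Alb, Ttr and 4 others measured) were abundant in every library, with sums of 912 to 1593 RPKM in AAV livers, 198 to 267 in 4-OHT livers, 167 to 276 (MYC) and 175 to 214 (MYC+Ex3) in tumours. Sex was not in the labels and was read from Xist and Y-linked genes. Libraries without Xist, taken as male, numbered 2 among the wild-type AAV livers, 3 each among Ex3 and MYC livers and 4 among MYC+Ex3 livers. In the tumour arm they numbered 4 among the 7 4-OHT livers, 3 (every one) among MYC tumours and 2 among MYC+Ex3 tumours. MYC tumour 3 had a Y-linked sum of 5.41 RPKM, where the other Xist-free libraries of this arm had 28.3 to 52.9. MYC liver replicate 5 carried Xist at 86.1 together with a Y-linked sum of 8.93, where the other Xist-bearing AAV libraries had at most 1.26. The AAV libraries also fell into 10 with and 10 without epidermal keratin RNA, a split the labels do not explain; 1 MYC liver (replicate 4) and 3 of each other group bore keratin.

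**Figure D1:**
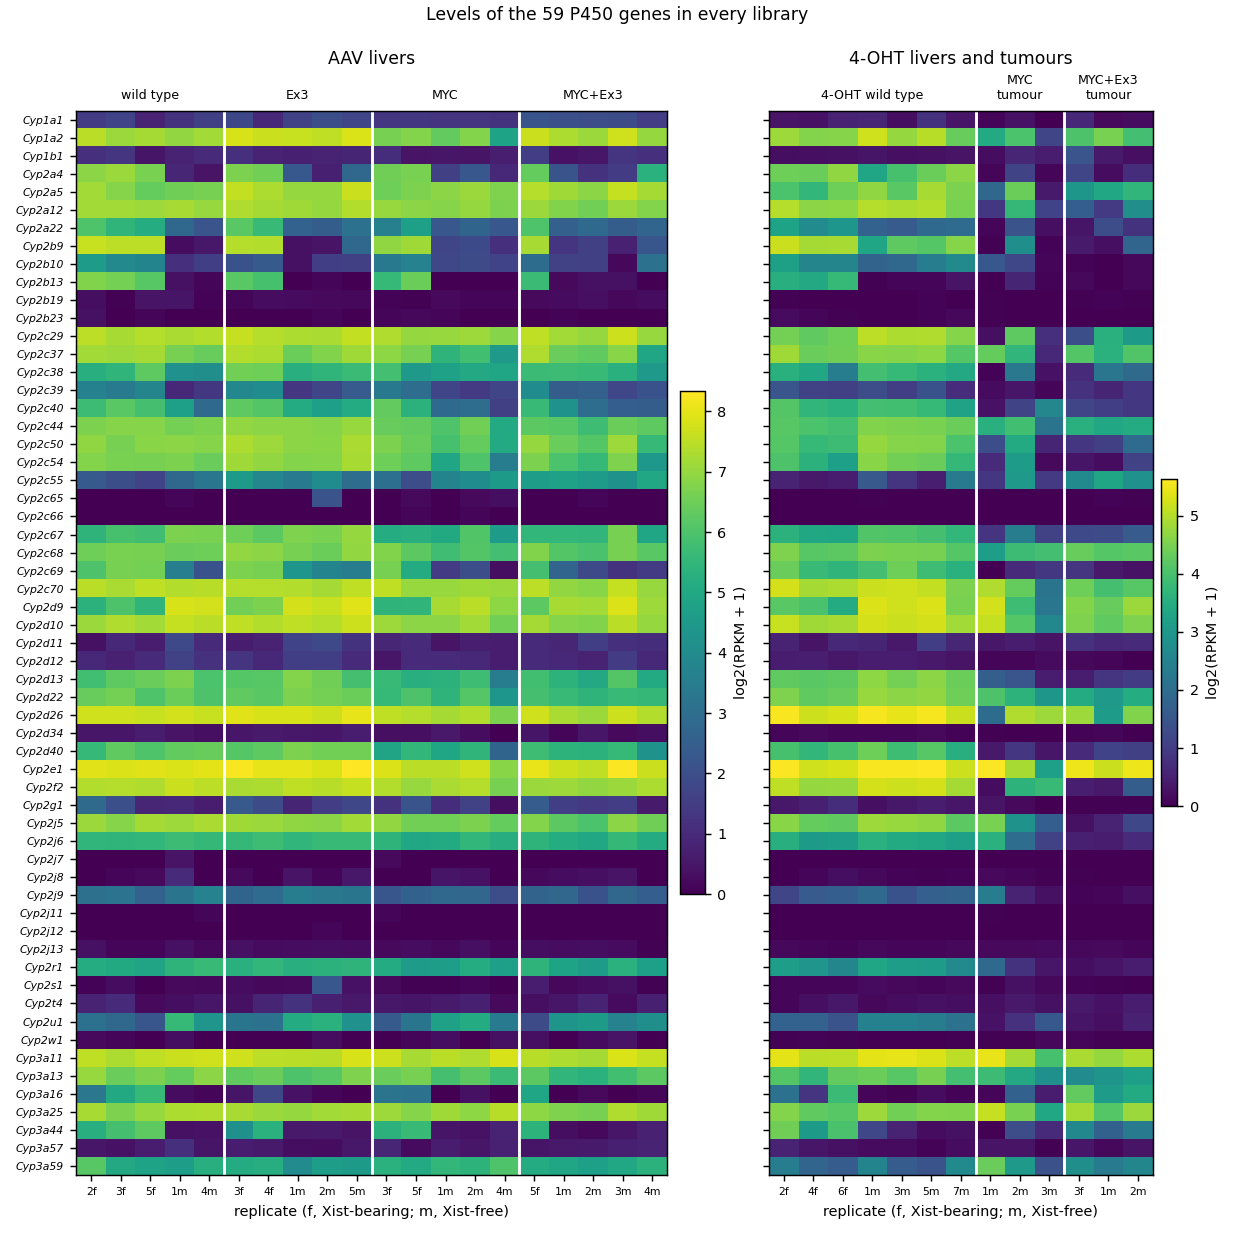
Level of each of the 59 members in each of the 33 libraries, as colour on a log2(RPKM + 1) scale, with a separate scale for the AAV livers (left) and for the 4-OHT livers and tumours (right); columns are libraries, ordered by group and sex within a group (f, Xist-bearing; m, Xist-free). Sex-biased rows switch within every AAV group, and most rows that are bright in 4-OHT livers are dark in the 6 tumours.

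In wild-type AAV livers 18 members had a mean of at least 100 RPKM and 15 a mean under 1, and the 10 highest held 47.5% of the RPKM of all members. Cyp2e1, which oxidises ethanol and acetaminophen, led with 243 ± 9.62 RPKM (SD, n = 5) and was the only member among the 50 most abundant genes. Cyp3a11, the main PXR-inducible Cyp3a form, stood at 188, the periportal Cyp2f2 at 176 and Cyp1a2 at 146 RPKM. In 4-OHT livers the 10 highest held 46.0%, again led by Cyp2e1 at 42.7 ± 5.77 RPKM (SD, n = 7). Tests covered genes with 3 or more libraries of an arm at 1 RPKM or above, which held 45 members in AAV livers and 40 in the tumour arm. The other 14 and 19 members were too low to test and include most Cyp2j genes, which are low in liver. Differences below are differences of mean log2(RPKM + 1) with their standard error (SE), tested with limma across all genes and called at a Benjamini-Hochberg adjusted p under 0.05; this scale understates the change of low genes.

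Sex gave the largest differences of any member in AAV livers. Of 45 members tested, 13 were higher and 2 lower in the 8 Xist-bearing than in the 12 Xist-free libraries, where 1.59% of all genes were higher and 1.50% lower. All 9 tested genes of a list of known female-biased forms rose and both known male-biased forms fell. Cyp2b9 averaged 162 RPKM in Xist-bearing and 1.75 in Xist-free libraries, a log2 difference of 6.18 ± 0.295 (limma adjusted p = 8.25e-12). Cyp2b13 averaged 73.1 against 0.103 RPKM, a difference of 5.96 ± 0.13 (limma adjusted p = 1.41e-17). For Cyp2a4, a female testosterone 15α-hydroxylase, the averages were 102 and 5.35 RPKM, 5.02 ± 0.453 apart (limma adjusted p = 3.41e-07). Xist-bearing and Xist-free livers did not overlap for these genes, within or across the sets with and without keratin. Cyp3a44 (4.87 ± 0.181), Cyp2c69 (3.73 ± 0.309) and Cyp3a16 (3.17 ± 0.41) followed with adjusted p of at most 5.39e-05 and no overlap. For Cyp3a16 the gap was slight, from 0.322 RPKM in the highest Xist-free to 0.391 in the lowest Xist-bearing liver, at 3 reads each. On the male side Cyp2d9, a testosterone 16α-hydroxylase, averaged 62.4 RPKM in Xist-bearing and 185 in Xist-free libraries (-1.60 ± 0.148, limma adjusted p = 4.75e-07), and the fatty acid hydroxylase Cyp2u1 6.09 and 24.6 RPKM (-1.93 ± 0.24, limma adjusted p = 3.22e-05). In the tumour arm, where only 4 of 13 libraries bore Xist, 0.0506% of genes were called for sex and 0 of 40 members, although 4 had an unadjusted p under 0.05. The female-biased Cyp3a44 came nearest there, at 12 RPKM with and 1.17 without Xist (2.53 ± 0.443, limma adjusted p = 0.0995).

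Because the sexes are unevenly spread over groups, each member with sex bias carries that imbalance into the genotype comparisons. The wild-type livers of the 2 arms were also unlike in their sex difference. In wild-type AAV livers Cyp2b9 was at 196, 179 and 180 RPKM in the 3 Xist-bearing animals and at 0.198 and 0.438 in the 2 Xist-free ones. In 4-OHT livers it was at 35.2, 28.3 and 28.5 RPKM in Xist-bearing animals and at 8.94, 17.8, 16.7 and 23.3 in Xist-free ones. Xist-free livers thus held almost no Cyp2b9 RNA in the AAV arm, whereas in the 4-OHT arm the highest of them (23.3) came close to the lowest Xist-bearing liver (28.3).

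The same held for Cyp2a4, with 117, 133 and 100 RPKM in Xist-bearing against 0.867 and 0.36 in Xist-free AAV livers. In 4-OHT livers its levels overlapped between the sexes, at 19.9, 19.7 and 24.9 against 9.02, 14.8, 19.5 and 24.0 RPKM. In a fit of the 12 wild-type livers, chosen after seeing the data, the female minus male difference of Cyp2b9 was 7.15 in AAV and 0.90 in 4-OHT livers, and these differed by -6.24 ± 0.363 (limma adjusted p = 7.36e-06). For Cyp2a4 the 2 sex differences were 6.20 and 0.41, which differed by -5.79 ± 0.399 (limma adjusted p = 1.81e-05). Of 43 members tested 7 differed in this way, against 0.403% of all genes. The rest were Cyp2c69 (3.57 and -0.001 in the 2 arms, limma adjusted p = 0.00427), Cyp2c39 (2.48 and 0.09, 0.00181), Cyp2b13 (6.23 and 3.45, 8.28e-05), Cyp2a22 (3.05 and 1.17, 0.0292) and Cyp2b10 (2.75 and 0.59, 0.0453). The added 1 RPKM weighs more on the lower scale of the 4-OHT livers, and with a pseudocount of 0.1 the differences of Cyp2b9, Cyp2a4, Cyp2c69 and Cyp2c39 passed (adjusted p at most 0.0230) while those of Cyp2b13, Cyp2a22 and Cyp2b10 did not (0.132, 0.0931 and 0.0636). The last 2 were also lost on leaving out single libraries. Cyp2b13 kept a wide gap between the sexes in both arms: it lay between 9.57 and 12.6 RPKM in Xist-bearing and between 0.017 and 0.222 in Xist-free 4-OHT livers, and for Cyp3a44 (adjusted p = 0.140), Cyp3a16 (0.462), Cyp2c40 (0.191) and Cyp2d9 (0.421) a difference between the arms did not pass. Arm, scale of the values, agent and any difference in age or origin of the animals cannot be told apart here.

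**Figure D2:**
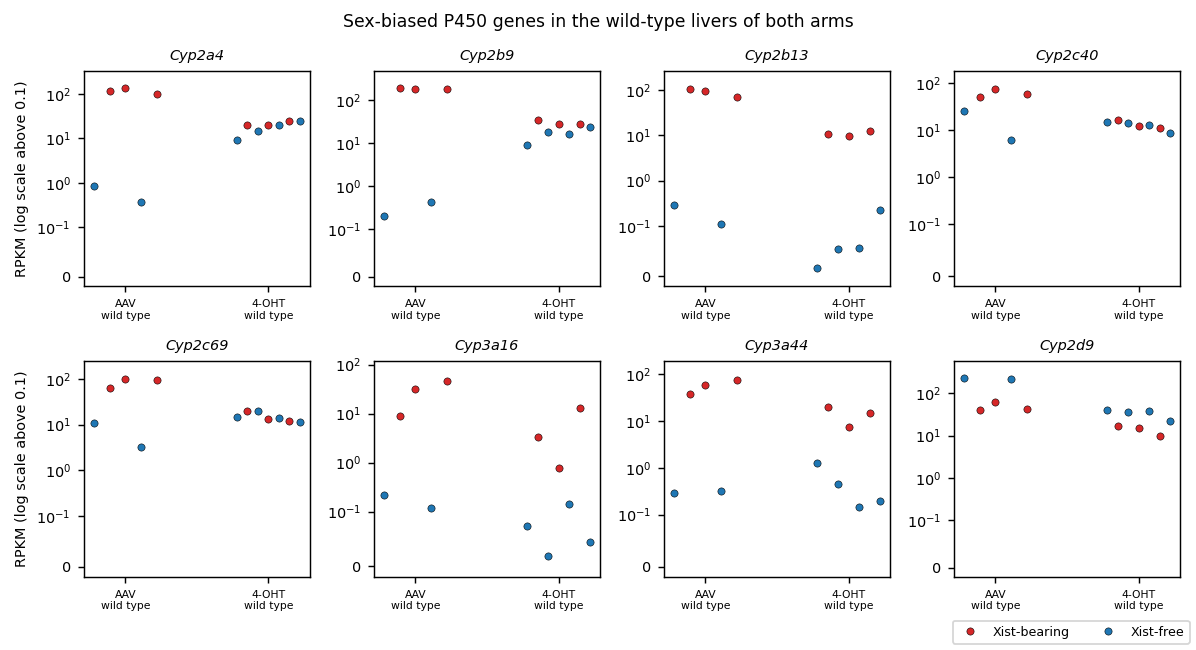
RPKM (log axis above 0.1, linear to 0) of 8 sex-biased members in each wild-type liver of the 2 arms, 1 point per library, red for Xist-bearing and blue for Xist-free; the arms are on different RPKM scales. Cyp2a4, Cyp2b9 and Cyp2c69 separate the sexes in AAV livers, whereas in 4-OHT livers Cyp2a4 and Cyp2c69 overlap and the Xist-free livers reach 23.3 RPKM of Cyp2b9.

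With Ex3 alone, 0 of 45 members passed the limma test, where 0.132% of all genes did. The comparison asks what β-catenin activation does to liver genes within days, and 5 members had an unadjusted p under 0.05. The authors' deposited table listed 0.765% of genes as passing this comparison, among them 1 member, Cyp2c55, at a log2 fold change of 0.69 (adjusted p = 0.014). The CAR- and PXR-inducible Cyp2c55 was at 5.98, 4.17, 2.98, 8.69 and 2.18 RPKM in wild-type and at 9.99, 15.4, 22.1, 13.4 and 6.90 in Ex3 livers. The groups shared only the range around 7 to 9 RPKM, and the difference of 1.35 ± 0.389 had a limma adjusted p of 0.388. The coumarin hydroxylase Cyp2a5 averaged 161 against 105 RPKM (0.61 ± 0.169, limma adjusted p = 0.326). Cyp1a2, which metabolises caffeine and arylamines, was at 126, 177, 135, 144 and 147 RPKM in wild-type and at 199, 185, 228, 203 and 232 in Ex3 livers. These values did not overlap, yet the difference of 0.52 ± 0.267 did not pass (limma adjusted p = 0.952). All 8 pericentral members had a positive difference, with a median of 0.21, against 0.01 for all genes. This direction was not particular to them: 31 of the 45 members tested were positive (median 0.11), among them all 8 tested Cyp2d genes (median 0.17). Cyp2f2 averaged 173 against 176 RPKM (-0.03 ± 0.124, limma adjusted p = 1.00).

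**Figure D3:**
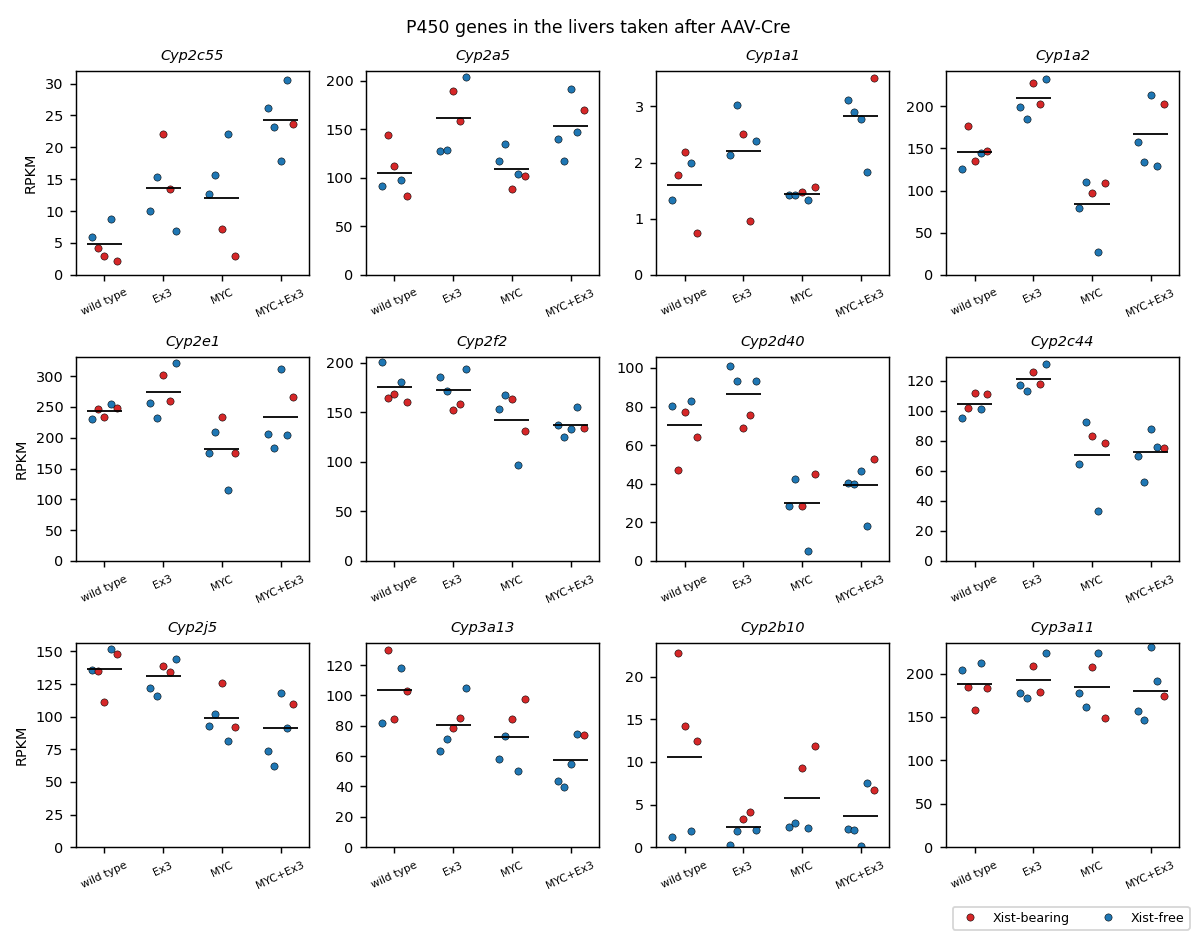
RPKM of 12 members in each AAV liver, 1 point per library (red, Xist-bearing; blue, Xist-free), with a line at the mean of each group of 5. Cyp2c55 is above every wild-type liver in all 5 MYC+Ex3 livers, and MYC livers sit lowest for Cyp1a2, Cyp2d40 and Cyp2e1, with replicate 4 at the bottom.

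After 4 days of MYC alone, 11 of 45 members fell and 0 rose, where 16.9% of all genes were higher and 5.36% lower. Of all genes called, 75.9% were higher, and 59.1% after median-ratio rescaling, with which 18 members fell and 0 rose; medians were -0.44 for the tested members and 0.07 for all genes. The Cyp2d subfamily, mouse counterparts of the human debrisoquine hydroxylase, held 5 of the 11. Cyp2d40 was at 80.1, 47.2, 77.2, 83.0 and 64.4 RPKM in wild-type and at 28.7, 42.5, 28.3, 5.39 and 45.1 in MYC livers, a fall of 1.45 ± 0.39 on the log2 scale (limma adjusted p = 0.0109). No MYC liver reached the lowest wild-type liver. Cyp2d13 averaged 37.4 against 76.0 RPKM (-1.14 ± 0.326, 0.0159), Cyp2d22 48.2 against 78.3 (-0.79 ± 0.23, 0.0178), Cyp2d26 154 against 206 (-0.44 ± 0.137, 0.0256) and Cyp2d10 121 against 161 (-0.41 ± 0.14, 0.0387). The male-biased Cyp2d9 of the same cluster did not move with them, at 106 against 118 RPKM (0.02 ± 0.513, limma adjusted p = 0.986).

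Cyp1a2 fell in MYC livers to 79.3, 110, 97.2, 27.2 and 109 RPKM, all below the 126 to 177 of wild type (-0.92 ± 0.267, limma adjusted p = 0.0175). The arachidonic acid epoxygenases Cyp2c44 (70.5 against 104 RPKM, -0.64 ± 0.191, 0.0211) and Cyp2j5 (98.8 against 136, -0.47 ± 0.15, 0.0298) fell with Cyp2j9 (4.71 against 8.16, -0.68 ± 0.21, 0.025) and Cyp2c67 (38.4 against 71.3, -0.88 ± 0.299, 0.0393). Cyp2e1 was at 231 to 254 RPKM in wild-type and at 175, 209, 234, 115 and 176 in MYC livers (-0.46 ± 0.16, limma adjusted p = 0.0455). Only 1 MYC liver lay within the wild-type range, but the call was lost in 13 of 20 fits that left out a library. Of the 8 pericentral members 2 fell, and the periportal Cyp2f2 did not pass (143 against 176 RPKM, -0.32 ± 0.124, 0.0694), nor did Cyp3a13 (-0.52 ± 0.204, 0.0726), Cyp3a11 (-0.04 ± 0.13, 0.872) or Cyp2c55 (12.1 against 4.80 RPKM, 1.05 ± 0.389, 0.058). Hepatocyte markers passed in 0 of 6 cases. The authors' deposited table, in which 20.5% of genes passed, called all 11 and a further 7 members.

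MYC liver replicate 4, the one with keratin RNA, was the lowest MYC library for Cyp1a2 (27.2 RPKM), Cyp2d40 (5.39), Cyp2d13 (10.5) and Cyp2e1 (115), and without it 5 members passed. Its part in the result beyond that was not tested. In Xist-free livers alone (3 MYC, 2 wild type) 0 of 42 passed, in libraries free of keratin 4 did, and with only these groups in the fit 2 did. Known female-biased members passed in 0 of 9 cases in MYC livers (median -1.10) and 0 of 9 in MYC+Ex3 livers (median -1.82), groups with 2 and 1 Xist-bearing livers against 3 in wild type.

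The remaining genes of a panel of 12 well-known forms were these in AAV livers. Cyp2f2 was at 201, 165, 169, 181 and 161 RPKM in wild-type, 186, 172, 152, 159 and 194 in Ex3, 154, 168, 164, 96.8 and 131 in MYC and 137, 125, 133, 156 and 134 in MYC+Ex3 livers, the last all below wild type. Cyp3a11 was at 204, 185, 158, 212 and 183 RPKM in wild-type, 178, 172, 209, 179 and 224 in Ex3, 178, 162, 208, 224 and 149 in MYC and 157, 146, 231, 192 and 174 in MYC+Ex3 livers, with all groups overlapping. Cyp2c29, a pericentral relative, was at 154, 181, 149, 164 and 167 RPKM in wild-type, 159, 152, 191, 170 and 190 in Ex3, 132, 137, 161, 111 and 127 in MYC and 142, 127, 207, 131 and 183 in MYC+Ex3 livers. It also overlapped between all groups. Cyp2b10 followed sex in wild-type livers, at 22.8, 14.2 and 12.5 RPKM in Xist-bearing and 1.17 and 1.95 in Xist-free ones. In MYC livers it was at 9.23 and 11.9 RPKM with Xist and at most 2.86 without. Xist-bearing Ex3 livers held only 3.32 and 4.14 RPKM, below every Xist-bearing wild-type liver. The Xist-free Ex3 livers held 0.293, 1.91 and 1.99 RPKM. In MYC+Ex3 livers it was at 6.67 RPKM with Xist, and without Xist at 0.14 to 2.08 except for replicate 4 (7.54). Cyp1b1, an AhR target of extrahepatic tissues, stayed between 0.323 and 1.92 RPKM in all 20 livers.

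MYC and Ex3 together gave 3 higher and 7 lower members against wild type, where 17.9% of all genes were higher and 6.18% lower. After rescaling 1 was higher and 8 lower, and the share of called genes that were higher went from 74.4% to 61.2%. Cyp2c55 was at 26.1, 23.2, 17.8, 30.6 and 23.7 RPKM, above every wild-type liver, a rise of 2.22 ± 0.389 (limma adjusted p = 0.000271). Its call held in all 9 alternatives and on leaving out each library. Cyp2a5 rose from 105 to 153 RPKM (0.54 ± 0.169, limma adjusted p = 0.0237) and the AhR target Cyp1a1 from 1.61 to 2.82 (0.57 ± 0.189, 0.034), both with overlap. The authors' deposited table called neither, rescaling ended both calls (0.0882 and 0.0520), and Cyp1a1 was lost in 7 of 9 alternatives, a sex covariate among them (0.0635). The largest fall was that of Cyp3a13, from 81.9, 130, 84.3, 118 and 103 RPKM in wild-type to 43.5, 39.4, 54.7, 74.7 and 73.9 when both alleles were active (-0.87 ± 0.204, limma adjusted p = 0.00371), with no overlap. Cyp2j5 fell from 136 to 91.2 RPKM (-0.61 ± 0.15, limma adjusted p = 0.00552). Cyp2c55, Cyp3a13 and Cyp2j5 were the members called in every alternative fit of this comparison. Smaller falls passed for Cyp2d22 (48.0 RPKM, -0.68 ± 0.23, 0.036), Cyp2j9 (4.91, -0.61 ± 0.21, 0.0399), Cyp2c44 (72.3, -0.54 ± 0.191, 0.0453), Cyp2f2 (137, -0.36 ± 0.124, 0.0422) and Cyp2a12 (115, -0.30 ± 0.103, 0.0416), each of which was lost in 6 or more fits that left out a library. With a sex covariate Cyp2d22 (0.0720), Cyp2c44 (0.102) and Cyp2a12 (0.0967) did not pass. The authors' deposited table, with 27.8% of genes passing, called 10 members, 8 of them the same. Without wild-type replicate 1, 3 members passed, the lowest count of these fits.

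Between MYC+Ex3 and MYC livers 0 of 45 members passed, in limma or in the authors' deposited table, where 0.190% and 0.276% of all genes did; 5 had an unadjusted p under 0.05 in limma. The pericentral Cyp1a2 was at 157, 134, 213, 129 and 203 RPKM in MYC+Ex3 livers, above all 5 MYC livers (1.10 ± 0.267, limma adjusted p = 0.170), and Cyp1a1 also lay above all MYC livers (2.82 against 1.45 RPKM, 0.63 ± 0.189, 0.543). Of the 8 pericentral members 0 passed and 7 had a positive difference, with a median of 0.40, against -0.01 for all genes. Other members shared this direction: 29 of the 45 tested were positive (median 0.14), among them all 8 tested Cyp2d genes (median 0.31). For an interaction of MYC with Ex3, limma called 0% of genes and 0 members, with 0 members at an unadjusted p under 0.05; the authors' deposited table holds no such comparison. Against Ex3 livers, MYC+Ex3 livers had 9 lower and 0 higher members, where 4.70% of genes were lower and 16.4% higher (77.7% of called genes higher, 67.1% after rescaling). These were Cyp2c44 (-0.75 ± 0.191, limma adjusted p = 0.00767), Cyp2j5 (-0.55 ± 0.15, 0.0117), Cyp2d22 (-0.84 ± 0.23, 0.0128), Cyp2a12 (-0.36 ± 0.103, 0.0155), Cyp2c67 (-1.0 ± 0.299, 0.0209), Cyp2d10 (-0.45 ± 0.14, 0.0254), Cyp2d26 (-0.43 ± 0.137, 0.0292), Cyp2j6 (-0.35 ± 0.114, 0.0329) and Cyp2d40 (-1.17 ± 0.39, 0.0367). Without MYC+Ex3 replicate 2, 3 members passed. In Xist-free livers alone 5 did, of which 1, Cyp2d22, is among these 9. The comparisons with MYC livers, Ex3 livers and wild type share libraries and are not independent.

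**Figure D4:**
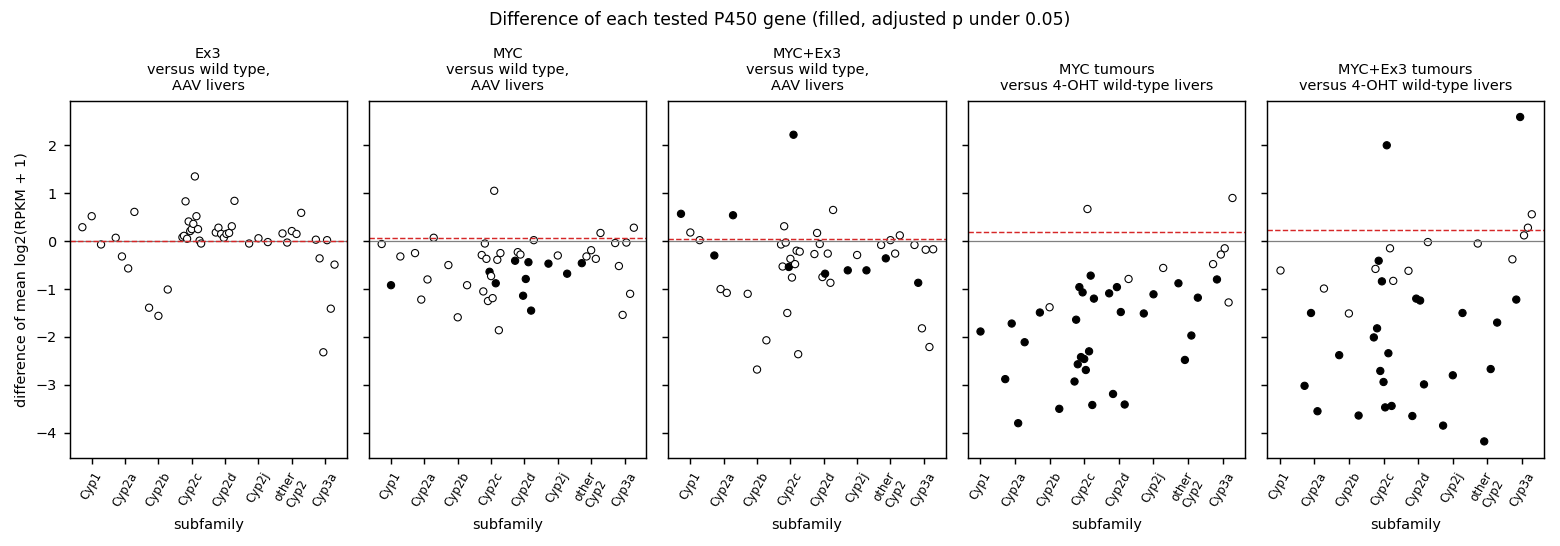
Difference of mean log2(RPKM + 1) of each tested member in 5 comparisons, 1 point per gene, grouped by subfamily along the x axis; filled points passed limma at an adjusted p under 0.05, and the dashed red line is the median of all genes. The tumour panels hold 31 and 25 filled points below 0, the AAV panels 11 (MYC), 7 (MYC+Ex3) and 0 (Ex3).

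In MYC tumours most P450 genes were lower than in 4-OHT livers. Of 40 members tested 31 fell and 0 rose, where 13.7% of all genes were lower and 36.2% higher. The authors' deposited table called 44.5% of genes either way. Of 50 members with an adjusted p it called 31, 30 lower and 1 higher, and 25 calls were shared. The higher one was Cyp3a59 (log2 fold change 1.13, adjusted p = 0.0483). The median was -1.49 for the members tested and 0.19 for all genes, and -1.65 and 0.01 after rescaling, which took the share of called genes that were higher from 72.6% to 53.7%. The 6 largest falls were in female-biased, Cyp2d and Cyp2c genes. Cyp2a4 was at 0.0732, 1.23 and 0.0632 RPKM in the 3 tumours, below the lowest 4-OHT liver at 9.02 (-3.80 ± 0.302, limma adjusted p = 8.81e-07). Cyp2b9 averaged 2.0 against 22.7 RPKM (-3.50 ± 0.551, 0.000176), and Cyp2c69 0.497 against 14.8 (-3.42 ± 0.214, 1.13e-07). These tumours carried no Xist, and in the 4 Xist-free 4-OHT livers too Cyp2a4 did not go below 9.02, Cyp2b9 below 8.94 or Cyp2c69 below 11.1 RPKM. Cyp2d40 was at 0.304, 0.865 and 0.27 RPKM in tumours and at 10.7 to 19.8 (median 14.9) in 4-OHT livers (-3.41 ± 0.176, limma adjusted p = 1.99e-08). Cyp2d13 averaged 1.48 against 20.3 RPKM (-3.19 ± 0.221, 2.65e-07) and Cyp2c29 6.24 against 25 (-2.93 ± 0.657, 0.00229). By subfamily 12 of 13 tested Cyp2c, 4 of 4 Cyp2a, 5 of 6 Cyp2d, 2 of 3 Cyp2b and 2 of 3 Cyp2j genes fell, but only 1 of 6 Cyp3a genes, Cyp3a13 (9.68 against 17.0 RPKM, -0.80 ± 0.202, 0.00501).

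Genes of both zones of the lobule fell in MYC tumours. Of 8 pericentral members 7 fell, and the periportal Cyp2f2 fell from 25.6 to 37.4 RPKM (median 33.1) to 0.138, 11.4 and 12.9 (-2.48 ± 0.574, limma adjusted p = 0.0028). Cyp1a2 went from 18.9 to 36.2 RPKM (median 25.5) to 9.89, 15.3 and 1.26 (-1.87 ± 0.426, 0.00255). Neither gene overlapped between the groups. Cyp1a2, Cyp2c50 and Cyp2c54 were the pericentral members also called lower in the authors' deposited table. There Cyp2a5, Cyp2c29, Cyp2c37 and Cyp2e1 did not pass (adjusted p = 0.140, 0.0818, 0.147 and 0.0819), and Cyp2f2 had no adjusted p. Cyp2a5 was at 2.73, 19.7 and 0.332 RPKM, against 12.2 to 28.6 (median 19.8) in 4-OHT livers (-2.11 ± 0.561, 0.00655; 0.0538 without MYC tumour 3), and the CAR target Cyp2b10 averaged 1.09 against 4.67 (-1.49 ± 0.304, 0.00117). Cyp2e1 was at 47.5, 28.8 and 8.05 RPKM (-0.88 ± 0.347, 0.0478), and without MYC tumour 3 its difference was -0.19 (limma adjusted p = 0.460). Cyp3a11 (28.5 against 37.1 RPKM, -0.48 ± 0.224, 0.0888), Cyp2d9 (-0.79 ± 0.524, 0.223) and Cyp2c55 (2.97 against 1.20, 0.67 ± 0.471, 0.249) did not pass. Cyp1a1 and Cyp1b1 were too low to test in this arm, with at most 0.77 and 1.79 RPKM in any library.

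**Figure D5:**
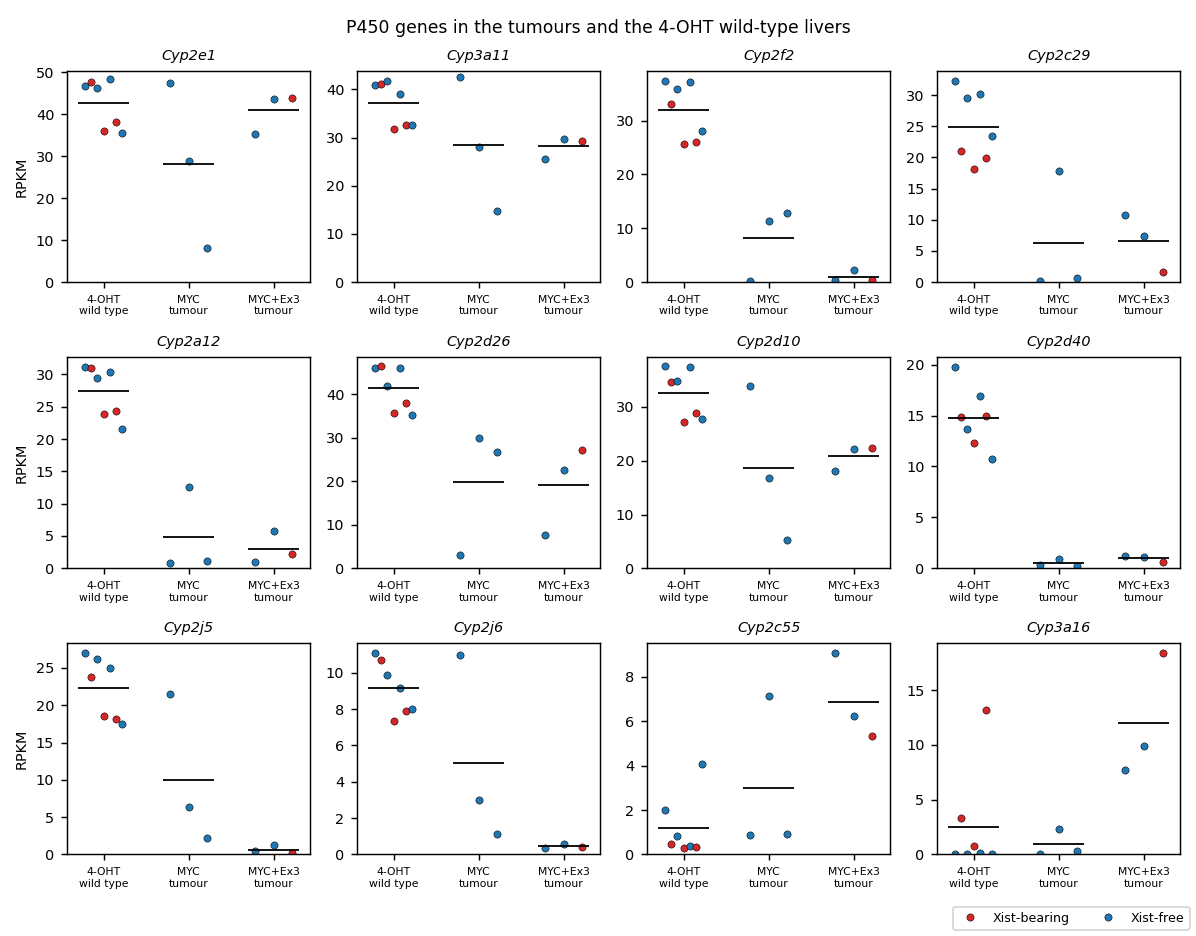
RPKM of 12 members in the 7 4-OHT livers, 3 MYC tumours and 3 MYC+Ex3 tumours, 1 point per library (red, Xist-bearing; blue, Xist-free), with a line at each mean. Cyp2e1 and Cyp3a11 of MYC+Ex3 tumours lie close to the liver range, Cyp2f2, Cyp2j5 and Cyp2j6 below every liver, and Cyp2c55 above all livers.

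MYC+Ex3 tumours had 25 lower and 2 higher members of 40, where 18.4% of all genes were lower and 42.3% higher. The authors' deposited table called 60.7% of genes either way. Of 54 members with an adjusted p it called 40, 38 lower and 2 higher, and 26 calls were shared. The median was -1.50 for members and 0.23 for all genes, and -1.58 and 0.05 after rescaling (69.7% of called genes higher before, 55.6% after). Cyp2f2 fell furthest, to 0.302, 2.17 and 0.391 RPKM (-4.18 ± 0.574, limma adjusted p = 2.90e-05). Cyp2j5 was at 17.5 to 27.0 RPKM (median 23.8) in 4-OHT livers and at 0.452, 1.33 and 0.186 in these tumours (-3.85 ± 0.411, 3.47e-06). Both genes were far below every 4-OHT liver in all 3 nodules, with nodule 2 the highest. Cyp2d13 (0.712 against 20.3 RPKM, -3.65 ± 0.221, 3.27e-08), Cyp2b9 (1.02 against 22.7, -3.64 ± 0.551, 6.59e-05), Cyp2a4 (0.691 against 18.8, -3.55 ± 0.302, 5.23e-07) and Cyp2c54 (0.504 against 15.8, -3.47 ± 0.487, 3.54e-05) followed. The vitamin D 25-hydroxylase Cyp2r1, named after its values were seen, fell from 7.07 to 0.255 RPKM (-2.67 ± 0.255, 1.36e-06), and Cyp2b10 was at 0, 0.0881 and 0.0341 RPKM (-2.38 ± 0.304, 1.55e-05). Cyp2c29 averaged 6.58 RPKM (-2.01 ± 0.657, 0.0164) and lost its call without MYC+Ex3 tumour 3 (0.129).

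Of the 8 pericentral members 3 fell by limma in these tumours (Cyp2c29, Cyp2c50 and Cyp2c54) and 5 did not pass. The authors' deposited table called those 5 lower as well, with log2 fold changes of -0.82 (Cyp1a2), -1.25 (Cyp2a5), -0.82 (Cyp2c37), -0.27 (Cyp2e1, adjusted p = 0.0238) and -0.61 (Cyp3a11). Cyp2e1 was at 35.4, 43.7 and 43.9 RPKM, against 35.6 to 48.4 (median 46.3) in 4-OHT livers (-0.05 ± 0.347, limma adjusted p = 0.907). These values lie close to the highest RPKM of any gene in the 3 nodules (45.9, 55.2 and 55.3), and a p that misses the threshold does not show equal levels. Cyp1a2 was at 21.4, 14.3 and 15.5 RPKM (-0.60 ± 0.426, 0.239), Cyp3a11 at 25.5, 29.7 and 29.3 (-0.38 ± 0.224, 0.154), and Cyp2a5 at 9.35, 12.1 and 6.87 (-0.99 ± 0.561, 0.140). Cyp3a11 and Cyp2a5 of all 3 nodules lay below every 4-OHT liver although they did not pass. All 8 differences were negative, with a median of -0.79, against 8 negative with a median of -1.99 in MYC tumours. No pericentral member passed between the tumour genotypes. Cyp2d9 was at 19.0, 26.6 and 22.9 RPKM, within the 9.96 to 39.5 of 4-OHT livers (-0.02 ± 0.524, 0.981), and Cyp3a13 fell from 17.0 to 6.72 (-1.22 ± 0.202, 0.000143).

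The members that rose in MYC+Ex3 tumours were Cyp2c55 and Cyp3a16. Cyp2c55 was at 9.08, 6.21 and 5.32 RPKM, above all 4-OHT livers at 0.303 to 4.07 (median 0.483), a difference of 2.0 ± 0.471 (limma adjusted p = 0.00215). It thus rose in MYC+Ex3 tissue of both arms. Cyp3a16 was at 7.67, 9.87 and 18.4 RPKM, against 3.29, 0.792 and 13.2 in Xist-bearing and at most 0.142 in Xist-free 4-OHT livers (2.59 ± 0.707, limma adjusted p = 0.00574). The nodules at 7.67 and 9.87 RPKM were Xist-free, and among Xist-free libraries alone the difference was 3.18 (limma adjusted p = 0.000342). Against the later-numbered series of 4-OHT livers by title, which holds the female at 13.2 RPKM, it was 2.25 and did not pass (0.0546). The authors' deposited table did not call Cyp3a16 (log2 fold change 1.12, adjusted p = 0.293) and called Cyp1b1 higher (1.56, adjusted p = 0.00221).

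Between tumour genotypes 2 of 40 members differed, both in the Cyp2j cluster, where 2.10% of all genes were lower and 2.02% higher in MYC+Ex3 than in MYC tumours. Cyp2j5 was at 21.5, 6.30 and 2.22 RPKM in MYC tumours and below 1.34 in all MYC+Ex3 tumours (-2.35 ± 0.486, limma adjusted p = 0.0136). Cyp2j6 was at 11.0, 3.01 and 1.11 RPKM in MYC and at 0.352, 0.587 and 0.405 in MYC+Ex3 tumours (-1.69 ± 0.414, 0.0344). Neither overlapped, although the 3 MYC tumours themselves lay far apart. Both calls were lost without MYC+Ex3 tumour 3 (0.0810 and 0.119) and when only the 6 tumours were fitted (0.219 and 0.312). The authors' deposited table called 4.49% of genes and 1 member, Cyp2j6 at a log2 fold change of -2.01 (adjusted p = 0.000342). The third tested gene of the cluster, Cyp2j9, was at 4.22, 0.452 and 0.192 RPKM in MYC tumours and at 0.0509, 0.165 and 0.0399 in MYC+Ex3 tumours. Outside the cluster Cyp2c39, Cyp2c68, Cyp3a44 and Cyp3a16 did not overlap either. MYC and MYC+Ex3 tumours held Cyp2c39 at 0.0729 to 0.263 and 0.504 to 0.847 RPKM, and Cyp3a44 at 0.0213 to 1.51 and 2.38 to 5.18. Cyp2c68 was at 7.74 to 14.5 and 16.7 to 18.9 RPKM. Cyp3a16 was at 0.0484, 2.34 and 0.344 RPKM in MYC and 7.67, 9.87 and 18.4 in MYC+Ex3 tumours. Groups of 3 separate easily, and the share of all genes without overlap is not given here. None of these members passed the main fit or the authors' deposited table (Cyp3a16, log2 fold change 0.97, adjusted p = 0.192). Cyp2c39 passed with a pseudocount of 0.1. Cyp3a16 passed when only tumours were fitted, in Xist-free libraries and with the earlier-numbered title series of controls. Cyp2f2 (0.955 against 8.18 RPKM, -1.70 ± 0.680, 0.203), Cyp1a2 (17.0 against 8.82, 1.27 ± 0.504, 0.198) and Cyp2c55 (6.87 against 2.97, 1.32 ± 0.557, 0.229) did not pass. Hook1, which borders the Cyp2j cluster in the annotation and was looked at after these values were seen, averaged 8.82, 8.13 and 7.95 RPKM in MYC+Ex3 tumours, MYC tumours and 4-OHT livers and passed in none of these comparisons (limma adjusted p = 0.789, 0.401 and 0.898).

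The 3 MYC tumours differed among themselves in which members they kept. MYC tumour 1 had Cyp2e1 at 47.5, Cyp3a11 at 42.5, Cyp2d10 at 33.9 and Cyp2j5 at 21.5 RPKM, in or above the range of 4-OHT livers. The same nodule had Cyp2f2 at 0.138, Cyp2c29 at 0.165, Cyp2a12 at 0.881 and Cyp2d26 at 3.0 RPKM, well below that range. MYC tumour 3 showed another pattern, with Cyp2e1 at 8.05 and Cyp1a2 at 1.26 but Cyp2f2 at 12.9 and Cyp2d26 at 26.7 RPKM. Between the highest and the lowest MYC tumour Cyp2c29 varied 108-fold and Cyp2f2 93.8-fold. Of 40 members, 26, 32 and 35 lay below every 4-OHT liver in MYC tumours 1 to 3, and 33, 30 and 30 in MYC+Ex3 tumours 1 to 3, where between 21.4% and 26.1% of the 11854 genes tested did. Above every 4-OHT liver were 4, 2 and 0 members and 1, 1 and 4 members, and between 39.4% and 55.7% of all genes. Cyp2c55 was above in each MYC+Ex3 nodule and in MYC tumour 2 (7.12 RPKM), but not in MYC tumours 1 and 3 (0.863 and 0.940). Cyp3a59, a near copy of Cyp3a25, was above in MYC tumours 1 (19.2 RPKM) and 2 (7.18) and MYC+Ex3 tumour 3 (5.97).

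The partners and regulators of these enzymes were followed as 32 tested genes, covering electron donors, haem synthesis and transcription factors or receptors. In MYC livers 7 fell and 0 rose (5.36% and 16.9% of all genes), in MYC+Ex3 livers 4 fell and 2 rose (6.18% and 17.9%), and with Ex3 alone 0 passed by limma (3 at an unadjusted p under 0.05). The growth hormone receptor Ghr fell in MYC livers from 159 to 86.5 RPKM (-0.93 ± 0.202, limma adjusted p = 0.00224), with Ppara (-0.90 ± 0.26, 0.0174) and Ahr (-0.67 ± 0.221, 0.0337). In MYC+Ex3 livers the bile acid receptor Nr1h4 fell from 80.9 to 61.8 RPKM (-0.39 ± 0.0978, 0.00572).

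In MYC tumours 7 of the 32 fell and 2 rose (13.7% and 36.2% of all genes), and in MYC+Ex3 tumours 7 fell and 4 rose (18.4% and 42.3%), so that the share that fell in the latter was near that of all genes. Por, the electron donor, fell from 24.7 to 17.0 RPKM in MYC tumours (-0.49 ± 0.183, limma adjusted p = 0.0371), and Ahr from 7.23 to 3.36 (-1.17 ± 0.338, 0.0107). In MYC+Ex3 tumours Ghr went from 27.2 to 8.23 RPKM (-1.61 ± 0.17, 3.26e-06) and the hepatocyte factor Onecut1 from 6.26 to 1.46 (-1.50 ± 0.308, 0.000794), while Tiparp, a repressor of AhR, rose from 2.67 to 6.38 (0.98 ± 0.199, 0.000737). Ghr was also the gene of this list that passed between tumour genotypes (8.23 against 16.4 RPKM, -0.85 ± 0.201, 0.0289). Hepatocyte markers passed as lower in 0 of 6 cases in MYC and 3 of 6 in MYC+Ex3 tumours. Macrophage markers fell in 4 of 5 and endothelial markers in 4 of 6 cases in both, where 13.7% (MYC) and 18.4% (MYC+Ex3) of all genes did. Of 6 stellate cell and fibroblast markers 2 rose and 3 fell in MYC tumours, and 1 rose and 4 fell in MYC+Ex3 tumours. Summed macrophage RNA was 68.1 to 96.7 RPKM in 4-OHT livers, 19.1 to 66.9 in MYC and 28.1 to 33.2 in MYC+Ex3 tumours, and endothelial RNA 40.5 to 68.1, 23.3 to 37.3 and 25 to 29.7. The part of cell composition in the differences above was not tested.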

How the data were processed

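Total RNA of mouse livers and liver nodules had been sequenced as strand-specific TruSeq libraries on NovaSeq or another Illumina instrument, per the labels' protocols. The submitters' processing notes name TopHat2 2.0.8, SAMtools, featureCounts 1.4.5-p1, DESeq2 and the build mm9, without role or order; duplicate removal and the counting of reads shared by near copies are not given in the sources used here. The authors deposited RPKM per gene and library. The authors' deposited table also gives a log2 fold change and an adjusted p-value per comparison, which were only counted and quoted. RPKM came in steps of 1 read, so reads in genes per library were recovered for depth alone (20485 of 21671 genes, all values whole within 0.001; the other 1186 genes are at 0). RPKM rest on 3.75 to 9.82 M reads in genes per library, which limits the precision of genes under 1 RPKM.

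Groups came from titles. Values were tested as log2(RPKM + 1) with limma 3.58.1 (R 4.3.3; empirical Bayes with trend, two-sided), separately in the 20 AAV libraries and the 13 of the tumour arm, on 13688 and 11854 genes with an RPKM of at least 1 in at least 3 libraries, with Benjamini-Hochberg adjustment per comparison over all genes. The code was tested on simulated data. Each library is taken as a separate animal; the labels do not say so, and p-values then measure the spread between these samples. 0 columns belonged to samples outside the series. Symbols with other endings (Cyp2ab1, Cyp2c53-ps, Cyp2d37-ps, Cyp3a41b) are no members.

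Named were a panel of 12 members, all called members where at most 12 were called and otherwise the 6 largest changes each way, members of the zonation, sex and induction lists, and at most 6 partner genes a comparison; the values of 1 partner gene are not reported here. The members, lists and tests were chosen with earlier results of these data known. Sequences are from RefSeq (GRCm38.p6; 50 of 59 members matched by symbol); transcript identity is blastn (BLAST 2.17.0) of GENCODE transcripts. Alternatives were a pseudocount of 0.1, no filter, median-ratio rescaling, fits restricted to the compared groups, a term for sex, Xist-free libraries only, a batch term or single batches (keratin; title series of 4-OHT livers), and leaving out each library.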

Additional observations from a re-analysis of the deposited data

Results flagged for a closer look

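Single libraries stood apart from their group in 9 of 153 combinations of a member and a group of 4 to 10 libraries (the gap to the nearest library, set against the group's range, exceeded Dixon's limit), where chance gives about 1 in 20. Of these, 5 were in MYC+Ex3 liver replicate 5, the only Xist-bearing library of its group: Cyp2b9 at 150 RPKM (others at most 3.66), Cyp2b13 at 50 (at most 0.291), Cyp2c69 at 57.9 (at most 5.56), Cyp3a16 at 28.8 (at most 0.158) and Cyp3a44 at 40.4 (at most 0.7). Cyp3a16 stood apart in 2 more Xist-bearing libraries, at 2.39 RPKM in Ex3 liver replicate 4 (others at most 0.391) and at 13.2 in 4-OHT liver replicate 6 (others at most 3.29). Cyp2c67 was at 98.3 RPKM in MYC+Ex3 liver replicate 3, against 29.1 to 45.1 in the others. Cyp1b1 was at 1.22 RPKM in Ex3 liver replicate 3, against 0.68 to 0.821.

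The female minus male difference of 7 members was smaller in 4-OHT than in AAV wild-type livers by a test of the difference itself (limma, 12 libraries). The differences between the arms were -6.24 for Cyp2b9, -5.79 for Cyp2a4, -3.57 for Cyp2c69, -2.77 for Cyp2b13, -2.39 for Cyp2c39, -2.16 for Cyp2b10 and -1.89 for Cyp2a22 on the log2 scale. This fit was chosen after seeing the data and spans 2 RPKM scales. With a pseudocount of 0.1 Cyp2b13, Cyp2b10 and Cyp2a22 did not pass.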

How the results depend on the processing

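No result reversed. The counts of members called that moved by over 1.5 times were these. MYC against wild-type livers (11) had 18 after median-ratio rescaling, 2 when only these groups were fitted, 0 in Xist-free and 4 in keratin-free libraries. MYC+Ex3 against wild-type livers (10) had 4 with no filter, 6 in Xist-free libraries (4 of the 10, with Cyp2c38 and Cyp2c39) and 6 in keratin-bearing ones. MYC+Ex3 against Ex3 livers (9) had 15 when only these groups were fitted, 5 in Xist-free libraries (1 of the 9 and 4 others) and 3 in keratin-bearing ones. MYC+Ex3 against MYC tumours (2) had 1 with no filter, 1 with a sex covariate and 0 with one title series of controls. When only tumours were fitted it had 1, and in Xist-free libraries 1, in both cases Cyp3a16, with both main calls lost. The members whose sex difference differed between arms (7) were 4 with a pseudocount of 0.1. Leaving out each library gave 5 to 15, 3 to 12, 3 to 14, 0 to 7 and 5 to 7 for these, 13 to 16 for sex in AAV livers (15), 25 to 33 for MYC tumours (31), 24 to 33 for MYC+Ex3 tumours (27), 0 to 2 for sex in the tumour arm and 0 for Ex3 against wild type, MYC+Ex3 against MYC livers and the interaction. The causes were not tested. The authors' deposited table called 18 members in MYC livers and 40 in MYC+Ex3 tumours. Keratin-bearing libraries alone hold 1 MYC liver, so MYC livers were not compared within them. Rescaling moved the all-gene median of MYC and MYC+Ex3 tumours from 0.19 and 0.23 to 0.01 and 0.05, with 32 and 28 members lower. No paired analysis was possible because replicates could be numbered only in the order of deposit, which ties no animals together. Members under 1 RPKM and the most abundant ones, close to the highest RPKM of any gene, are measured least precisely.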

Other observations

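Ex3 liver replicate 2 carried 2 members that are otherwise barely detected in these livers, both named after their values were seen. Cyp2c65 was at 3.41 RPKM there (40 reads) and at most 0.227 in any other AAV library, and Cyp2s1 at 3.83 RPKM (105 reads) and at most 0.595. The epithelial genes Krt19 (57.5 RPKM, at most 2.77 in other AAV libraries), Epcam (7.06, at most 2.29) and Vil1 (2.07, at most 0.536) were highest in the same library, while Cdx2 was at 0 and Sox9 at 2.83, within the range of the others. The summed cholangiocyte markers were 135 RPKM there and 32.1 to 102 in the other AAV libraries. Whether epithelium other than hepatocytes accounts for this RNA was not tested.

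MYC+Ex3 liver replicate 4 was Xist-free and had Cyp2a4 at 39.1 RPKM, against 1.35 to 3.46 in the other Xist-free MYC+Ex3 livers, with Cyp2b10 at 7.54 against 0.14 to 2.08. Its Cyp2b9 (3.66 RPKM) and Cyp2b13 (0) were those of a Xist-free liver.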
